A study of Onthophagus taurus with 60 samples.

Results

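The dorsal head epidermis of male *Onthophagus taurus* prepupae was compared with the epidermis of the carinated margin, a ridged edge of the prothorax. The comparison takes 18 of the 60 samples of the study, the 6 of the dorsal head and the 12 of the carinated margin. The 12 are the left and right margins of 6 animals, and after the 2 sides of an animal were summed 12 of 48 libraries entered, 6 per tissue. Samples were chosen by tissue label, and the carinated margin was taken as the prothoracic tissue nearest to the head in overall expression. All animals of both tissues were male prepupae, and the labels give no treatment, genotype, strain or age in days. The RNA was selected for poly(A) tails and sequenced from stranded libraries.

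The study asked how the thoracic horn of this beetle relates to wings, and it sampled 8 regions of the body wall. Besides the dorsal head they are the T2 wing on the mesothorax and the abdominal support structures, and on the prothorax the carinated, anterior and posterior margins, the thoracic horn and the dorsal prothorax. The head and the dorsal prothorax were taken as contrasts with no published tie to wings, while the margin counts among the regions related to wings, per the series description.

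Insect epidermis is a single cell layer that makes the cuticle. In a prepupa it has come away from the larval cuticle, grows and folds, and begins to secrete the cuticle of the pupa. Head, prothorax and wing segment are told apart during development by head patterning genes and Hox genes. In *O. taurus* the dorsal head is also where the paired head horns of large males form. The reference available for naming transcripts held almost only locus numbers. Genes are therefore given by locus number or transcript accession, no function is attached to them, and neither tissue could be checked against marker genes. In libraries made from pieces of tissue, fewer cells of a kind and less RNA per cell cannot be told apart.

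The head libraries held 74.83 to 87.27 M counts (M, mega-counts) and the summed margin libraries 28.53 to 37.86 M, a ratio of medians of 2.46, so depth differs with tissue. Replicate numbers paired neither tissue's animals with the other's. Any difference in handling between the head and the margin libraries cannot be told apart from the difference between tissues. Head libraries 2 and 5 were more like each other (Pearson r of log2 CPM 0.956) than like the other 4 (0.902 to 0.933). Those 4 head libraries correlated with each other at 0.941 to 0.97. Margin libraries 3 and 4 were also more like each other (0.945) than like the other 4 (0.884 to 0.932). The margin split was less clear, as its other 4 libraries correlated with each other at 0.924 to 0.947, which overlaps that range. The labels give no reason for either split. Nothing in the labels says more of the replicates than that they are biological, so p-values measure the spread between libraries. That spread was estimated from all 48 libraries of the series, so it is partly set by tissues other than head and margin.

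Head and carinated margin differed in the level of many transcripts. Of 15239 transcripts tested, 2470 (16.2%) were called higher in the head and 2047 (13.4%) lower, 4517 (29.6%) in all, at a Benjamini-Hochberg adjusted p under 0.05 in edgeR's quasi-likelihood test. The 6 head and 6 margin values did not overlap in 3092 transcripts (20.3%). Scaling to total counts in place of TMM (trimmed mean of M-values) moved the median of all log2 fold changes by -0.24 and turned this split to 1412 higher and 2905 lower, so small differences depend on the scaling. Differences of at least 2-fold numbered 972 higher (6.38%) and 1229 lower (8.06%). Summed to genes, 3717 of 7944 (46.8%) were called, 1912 (24.1%) higher and 1805 (22.7%) lower. This split moved with the fit as well. Leaving out each library in turn gave 2038 to 2322 genes higher and 1362 to 1544 lower. Total counts gave 1360 and 2205, and RLE factors (relative log expression) 1870 and 1832. At least 2-fold higher were 636 genes (8.01%) and at least 2-fold lower 661 (8.32%). The gene sums were scaled on their own, and their log2 fold changes lay lower than those of the transcripts. For genes with 1 tested transcript, RFeS was at 0.67 as a gene and 0.80 as a transcript, and betaCO at -0.53 and -0.40. The part of this shift in the gene calls was not tested. Without margin libraries 3 and 4 the call was made for 3603 transcripts, and without head libraries 2 and 5 for 4470.

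The large differences lay more often on the low side, at 2-fold mainly among the weakest transcripts. At 4-fold or more 271 transcripts were higher in the head and 667 lower, at 8-fold or more 156 and 348, and at 32-fold or more 61 and 165. The median log2 fold change was 0.86 among the higher calls and -1.32 among the lower ones. The direction varied with level. Among transcripts with a mean under 1 CPM (the usual library-scaled count, here scaled by TMM) 4.07% were called higher and 12.6% lower, while between 100 and 1000 CPM it was 39.7% and 15.3%. At 2-fold or more 152 were higher and 482 lower under 1 CPM. It was 477 and 445 between 1 and 10 CPM, and 232 and 262 between 10 and 100 CPM. Between 100 and 1000 CPM it was 96 and 34, and over 1000 CPM 15 and 6. Larger folds were not split by level.

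**Figure D1:**
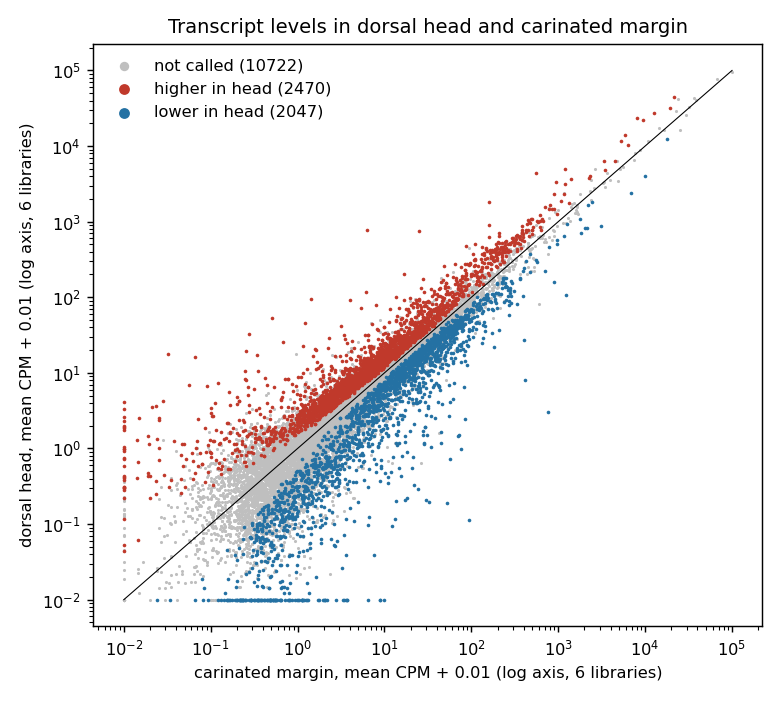
Mean level of each tested transcript in the carinated margin (x axis) and the dorsal head (y axis), both in TMM-scaled CPM on log axes, means of 6 libraries each. Coloured points are the 2470 transcripts called higher and the 2047 called lower in the head, and grey points those not called. Points along the lower edge had no counts in the head.

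A part of the low side was made of transcripts with no counts at all in the head. They were 114 of the 2047 lower calls, although the head was the deeper tissue, and in 6 of the 114 (5.26%) the 6 head values and the 6 margin values did not overlap. The rest of these transcripts were thus also at 0 in at least 1 margin library. Of the 1933 lower calls with counts in the head, 1144 (59.2%) did not overlap. The opposite case, no counts in the margin, made up 28 of the 2470 higher calls, of which 5 did not overlap. Where the summed gene could be tested, the sum was called in the same direction for 29 of 61 lower calls at 0 in the head (47.5%) and for 1177 of 1235 other lower calls (95.3%). On the high side it was 8 of 17 calls at 0 in the margin (47.1%) and 1814 of 2087 others (86.9%). The counts are estimates in which reads are assigned to isoforms by a model, and the part of that division in these calls was not tested. The transcripts described as higher or lower were, except in genes with opposite calls, limited to values that do not overlap, which held for 18.1% of all tested transcripts together with a call. For coding transcripts among these that were matched to a gene, the sum of the gene was also called in the same direction.

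The distances of the carinated margin and of the wing from the head differed by less than the spread of the head libraries, and the margin was chosen for its nearness, so its place is a description. The root mean squared difference of mean log2 CPM from the head was 1.12 for the carinated margin and 1.16 for the wing, with an SD over the 6 head libraries of 0.076 and 0.054. It was 1.21 for the anterior margin, 1.26 for the posterior margin, 1.45 for the dorsal prothorax, 1.55 for the support structures and 1.71 for the thoracic horn. The carinated margin and the wing are also the tissues whose libraries were summed, with median totals of 33.39 and 33.98 M against 15.17 to 17.67 M in the other 5. With every library thinned to 13.11 M the order of the 7 tissues was the same, from 1.01 for the carinated margin and 1.03 for the wing to 1.51 for the horn. Single libraries of the head differed from margin libraries by 1.57 to 1.88, from each other by 1.12 to 1.46, and margin libraries from each other by 1.36 to 1.59. As deposited, the closest head and margin libraries (1.566) were thus no further apart than the 2 least alike margin libraries (1.588). At equal depth this did not hold, with 1.377 against 1.368. The medians as deposited were 1.662 between head and margin libraries, 1.302 within the head and 1.445 within the margin.

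In transcripts chosen for a difference of at least 2-fold from the margin, the head mostly had the extreme mean of the 8 tissues. Of the 972 transcripts at least 2-fold higher in the head, the head had the highest mean of the 8 tissues in 699 (71.9%), and the margin had the lowest in 44 (4.53%). Of the 1229 at least 2-fold lower, the head had the lowest mean in 955 (77.7%), and the margin had the highest in 67 (5.45%). These shares share the head libraries with the calls and are a description. The transcripts were chosen for a head difference and the margin for its nearness to the head, and both choices bear on the shares. No share over all tested transcripts is given beside them, so how far the choices set them was not tested.

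The genes that rose most in the head against the margin followed several patterns across the other tissues. LOC111425572 (XM_023059686.1) was near 0 outside the head. Its 6 head values were 22.7, 39.9, 26.0, 35.4, 35.7 and 33.4 CPM, and its margin values 0.331, 0.27, 0.201, 0.246, 0.243 and 0.304 CPM. Every head library was far above every margin library, with little spread on either side. The log2 fold change was 6.90 ± 0.55 (SE; adjusted p = 5e-13), and no library of any other tissue exceeded 0.701 CPM. LOC111424387 followed the same order. Its head values were 4.89, 8.39, 5.90, 6.61, 9.93 and 5.81 CPM. The margin libraries had 0 CPM in 3, and 0.0251, 0.218 and 0.0304 CPM in the others (log2 fold change 7.08 ± 1.05, adjusted p = 5.1e-05). In the posterior margin, dorsal prothorax, horn, wing and support structures no count was found in any library.

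Other genes were higher in both head and horn than in the carinated margin. LOC111414747 was at 696, 1240, 484, 601, 788 and 782 CPM in the head. In the margin it was at 8.79, 13.4, 4.73, 1.53, 6.90 and 2.77 CPM, the lowest mean of the 8 tissues, and the log2 fold change was 6.91 ± 0.93 (adjusted p = 1.2e-07). The horn mean was 253 ± 197 CPM (SD, n = 6), and its range of 41.0 to 585 CPM overlapped the head range. Means were 95.1 CPM in the support structures, 68.0 CPM in the posterior margin and 56.3 CPM in the anterior margin. LOC111414410 was at 8.72, 15.8, 6.32, 34.2, 11.7 and 20.8 CPM in the head and at 0.0251 to 0.11 CPM in the margin (log2 fold change 8.11 ± 0.95, adjusted p = 1.8e-08). Its horn mean was 10.5 ± 8.79 CPM, while the mean of every other tissue was at or below 0.171 CPM. The unmatched transcript XM_023048121.1 was at 2.18 to 17.8 CPM in the head and 0 to 0.541 CPM in the margin (log2 fold change 4.95 ± 1.36, adjusted p = 0.0044). In the horn it reached 105 CPM in its highest library and 0.666 CPM in its lowest, and posterior margin library 5 was above every head library.

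The remaining genes of this kind had other layouts. LOC111415711 had the largest log2 fold change of the named genes, 9.29 ± 1.03 (adjusted p = 2e-09). Head library 2 was at 41.9 CPM and the other 5 at 14.3, 11, 12.5, 13.8 and 13.3 CPM, against 0 to 0.0551 CPM in the margin. The support structures held more of it, 26.6 ± 24.8 CPM, with a range of 4.92 to 63.0 CPM that covered all head values. LOC111415853 (XM_023047735.1) was at 5.05 to 10.5 CPM in the head and 0 to 0.232 CPM in the margin (log2 fold change 6.31 ± 0.79, adjusted p = 6.9e-08). Means were higher than in the head in the thoracic horn (18.3 CPM), the dorsal prothorax (11 CPM) and the posterior margin (7.55 CPM), and the carinated margin had the lowest mean of the 5 prothoracic regions. Summed over its 2 tested transcripts the gene differed by less, 4.28 on the log2 scale. The unmatched XM_023047518.1 was at 8.72, 1.89, 4.91, 13.4, 1.42 and 13.8 CPM in the head and 0 to 0.304 CPM in the margin (log2 fold change 6.01 ± 0.97, adjusted p = 4e-06). Head libraries 2 and 5 were its lowest, and the mean of every other tissue was at most 0.839 CPM.

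**Figure D2:**
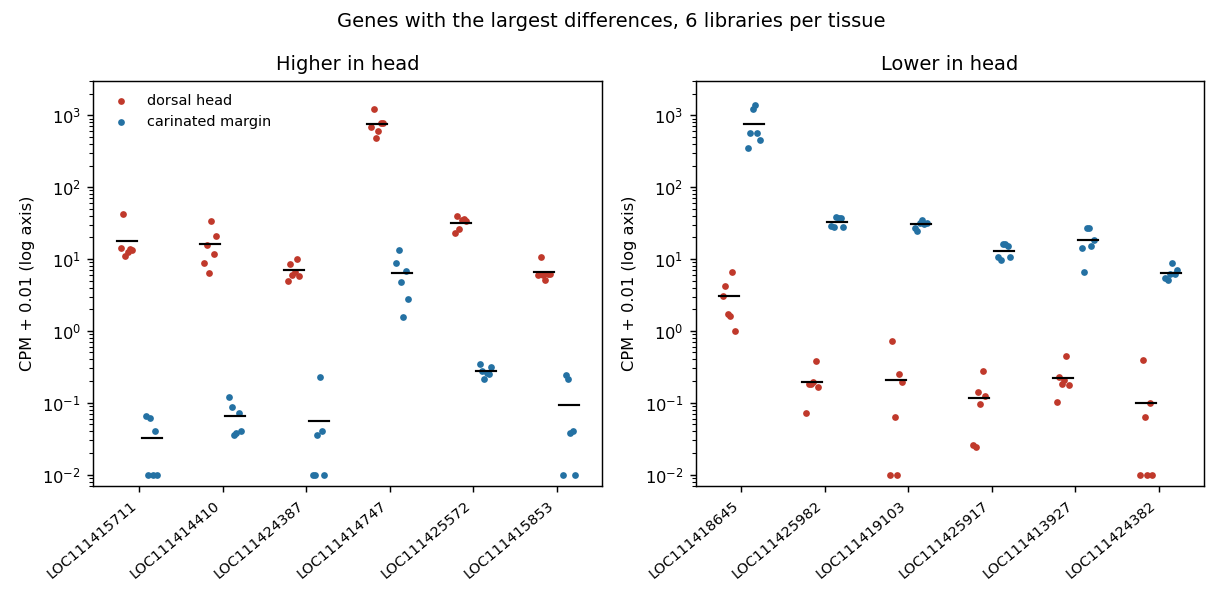
Level of the genes with the largest differences in each of the 6 head and 6 carinated margin libraries, in TMM-scaled CPM on a log axis, 1 point per library, with lines at the means and the small offset named on the axis so that 0 can be drawn. In each gene shown the 6 head points and the 6 margin points do not overlap.

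The genes that fell most in the head were mostly on in several regions of the thorax. LOC111425982 differed with the least error. It was at 0.0625, 0.172, 0.173, 0.183, 0.372 and 0.155 CPM in the head and at 29.2, 27.6, 38.3, 37.4, 36.8 and 27.6 CPM in the margin. All head libraries were at trace level and all margin libraries near 30 CPM. The log2 fold change was -7.42 ± 0.33 (adjusted p = 7.2e-21). The margin had the highest mean of the 8 tissues, followed by the support structures at 26.2 CPM, and the lowest mean outside the head was 9.41 CPM, in the posterior margin. LOC111425917, the gene next to it in the annotation, had the same order of the 2 tissues, 0.0143 to 0.27 CPM in the head and 9.81 to 16.2 CPM in the margin (log2 fold change -6.89 ± 0.48, adjusted p = 2.4e-14). For both genes margin libraries 3, 4 and 5 were the highest. Whether the neighbours share reads was not tested.

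LOC111419103 and the unmatched XM_023051862.1 marked the prothorax as a whole. LOC111419103 (XM_023051863.1) was at 27.2, 24.7, 32.1, 34.9, 31.0 and 31.7 CPM in the carinated margin, and its means in the 5 prothoracic regions were 18.5 to 42.8 CPM. In wing and support structures no count was found in any of the 12 libraries. The head was at 0, 0.702, 0.0531, 0, 0.244 and 0.183 CPM, and the log2 fold change was -7.23 ± 0.61 (adjusted p = 6.6e-11). XM_023051862.1 had the same layout, with prothoracic means of 39.6 to 71.6 CPM, no count in wing and support structures, and 0 to 2.26 CPM in the head (log2 fold change -6.29 ± 0.67, adjusted p = 7.9e-09). In both transcripts head library 2 was the highest of the head libraries and library 5 the next. Their transcript numbers are consecutive, and whether they come from 1 locus or share reads was not tested.

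XM_023059923.1 was near 0 in most libraries outside the carinated margin. Its margin values were 48, 51.4, 59.0, 58.7, 43.5 and 52.6 CPM. The head was at 0.0469, 0.0859, 0.0531, 0.535, 0.231 and 0.113 CPM, and the highest library of any other tissue was at 4.92 CPM, in the dorsal prothorax. The log2 fold change to the head was -8.16 ± 0.91 (adjusted p = 2.5e-09), the largest fall among the named transcripts with counts in the head. It was not matched to a gene. LOC111413927 was shared with the support structures, at 79.0 ± 6.52 CPM there and at 14.4, 6.53, 27.0, 27.3, 15 and 18.4 CPM in the margin. It was at 0.0938 to 0.436 CPM in the head (log2 fold change -6.37 ± 0.83, adjusted p = 1.3e-07), and the 5 other tissues had means of 0 to 0.564 CPM.

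LOC111418645 was high in every tissue but the head. Margin values were 353, 561, 1240, 1400, 567 and 449 CPM, with libraries 3 and 4 the highest, and head values were 3.08, 4.21, 1.69, 1.60, 6.52 and 0.999 CPM (log2 fold change -7.98 ± 0.78, adjusted p = 1.2e-10). The lowest mean of the other 6 tissues was 193 CPM, in the horn, and the highest 2370 CPM, in the support structures. LOC111424382 was at 5.14 to 8.70 CPM in the margin and 0 to 0.387 CPM in the head (log2 fold change -6.12 ± 0.62, adjusted p = 2.2e-10). It was highest in the wing (15.4 CPM) and the anterior margin (14.8 CPM) and near 0 in the dorsal prothorax as well (0.357 CPM). The horn (6.54 CPM), the posterior margin (10 CPM) and the support structures (4.33 CPM) lay between.

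**Figure D3:**
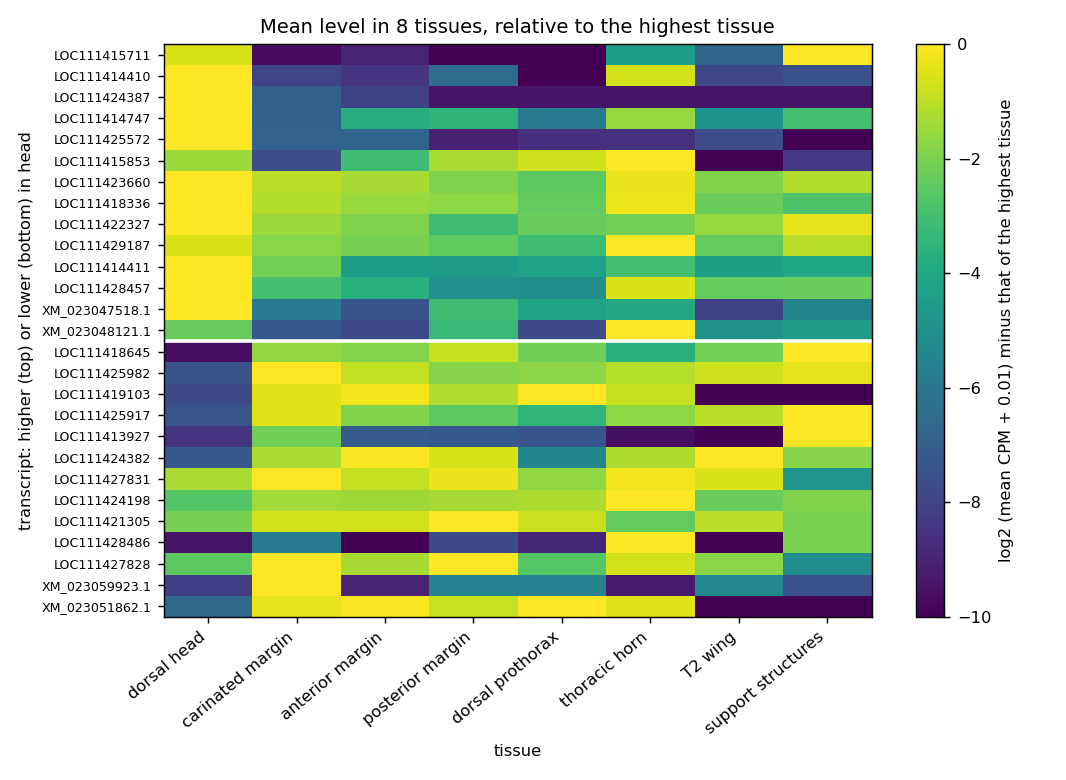
Mean level of the named transcripts with the largest differences in all 8 tissues, in TMM-scaled CPM on a log colour scale, means of 6 libraries each. LOC111425572 and LOC111424387 are highest in the head, LOC111419103 and XM_023051862.1 in the 5 prothoracic regions, and XM_023059923.1 in the carinated margin.

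The most abundant transcripts were largely the same in both tissues. The 10 transcripts with the highest mean share carried 39.5 to 41.5% of head counts and 38.8 to 44.5% of margin counts, and 8 of the 10 were the same, as were 18 of the top 20 and 82 of the top 100. These shares are of counts, not per transcript length. The most abundant, XM_023050859.1, took 8.23 ± 0.45% of head counts and 10.2 ± 0.716% of margin counts, with a log2 fold change after scaling of -0.08 ± 0.14 (adjusted p = 0.73). Within this shared set some were called. LOC111423660 took 3.90 ± 0.573% in the head and 2.22 ± 0.465% in the margin. Its scaled values were 50500, 42300, 40900, 54600, 31100 and 49200 CPM in the head and 21900, 23600, 18900, 13400, 29900 and 22200 CPM in the margin. The lowest head library was just above the highest margin library, and the log2 fold change was 1.05 ± 0.27 (adjusted p = 0.0022).

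Other abundant transcripts higher in the head were LOC111422327, LOC111429187, LOC111428457, LOC111414411 and LOC111418336. LOC111428457 differed most among them, at 2120 to 6970 CPM in the head and 296 to 689 CPM in the margin (log2 fold change 2.96 ± 0.28, adjusted p = 4.1e-11), with a horn mean of 3050 CPM. LOC111414411 lies near LOC111414410, with 1 annotated gene between them. It was at 3530, 2900, 3320, 10100, 2490 and 7590 CPM in the head and 762 to 2030 CPM in the margin (log2 fold change 2.08 ± 0.36, adjusted p = 1.8e-05). The margin was the second highest of the 8 tissues for it, and head libraries 4 and 6 were well above the other 4. LOC111422327 was at 15900 to 33700 CPM in the head and 4870 to 10900 CPM in the margin (log2 fold change 1.52 ± 0.28, adjusted p = 3.3e-05), and LOC111429187 at 11400 to 16100 and 4650 to 6910 CPM (1.26 ± 0.17, adjusted p = 1.4e-07). LOC111418336 was at 21400 to 35100 and 7300 to 19100 CPM (1.15 ± 0.39, adjusted p = 0.021). That call was lost without margin replicate 3, 4 or 6 (adjusted p = 0.061, 0.07 and 0.052) and without margin libraries 3 and 4 together (adjusted p = 0.16).

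Abundant transcripts lower in the head included a neighbouring pair. LOC111427831 was at 5560, 3440, 3360, 4750, 5060 and 2240 CPM in the head and at 7610, 12000, 10600, 9160, 10500 and 9380 CPM in the margin, its highest tissue (log2 fold change -1.28 ± 0.21, adjusted p = 8.4e-06). LOC111427828, next to it in the annotation, was at 78.7 to 209 CPM in the head and 740 to 1160 CPM in the margin (log2 fold change -2.52 ± 0.23, adjusted p = 2.4e-11). In both genes head library 6 was the lowest, and the support structures were lower than the head, with means of 372 and 25.2 CPM. LOC111428486 had means from 4.35 CPM in the wing to 73500 CPM in the horn. It was at 59.4 to 134 CPM in the head and 411 to 2140 CPM in the margin (log2 fold change -3.51 ± 0.49, adjusted p = 3.4e-07), and at a mean of 18200 CPM in the support structures. LOC111424198 (XM_023057644.1, 460 to 1150 against 1500 to 2500 CPM, -1.29 ± 0.25, adjusted p = 0.00011) and LOC111421305 (530 to 833 against 1450 to 2550 CPM, -1.37 ± 0.28, adjusted p = 0.00012) were lower by smaller folds.

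Genes with a symbol that is not a locus number gave 45 tested transcripts of 32 symbols. Of these transcripts 11 were called higher (24.4%, beside 16.2% of all tested) and 3 lower (6.67%, beside 13.4%), with a median log2 fold change of 0.20. This lean depended on the fit. As gene sums MSB, SREB and SWI were called lower (adjusted p = 0.0039, 0.046 and 0.0084), though their transcripts were not called. The sum of MR, which had a transcript called lower, was not called (adjusted p = 0.3). The symbols appear to be shortened in the reference, and no function is assigned to them. RFeS was at 32.8, 28.7, 29.7, 31.7, 26.7 and 33.7 CPM in the head and 17.3, 18.5, 17.7, 15.1, 20.9 and 15.7 CPM in the margin (log2 fold change 0.80 ± 0.10, adjusted p = 2e-08). TORI (0.81 ± 0.14), S2 (0.64 ± 0.14), and ND-AC (XM_023060797.1, 0.64 ± 0.10) were also higher in the head, with adjusted p = 1.1e-05, 0.00026 and 3.8e-06. ClpP (0.37 ± 0.10, adjusted p = 0.0056) and Apep (0.33 ± 0.07, adjusted p = 0.00025) were higher by less, and both lost the call when scaled to total counts, where their log2 fold changes were 0.13 and 0.09. Rab3-GA was lower, at 20.4 to 30.1 CPM in the head and 33.9 to 61.6 CPM in the margin (-0.74 ± 0.15, adjusted p = 8.7e-05).

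The 6 symbols that end in CO did not move together. epsilonCO was at 39.6, 24.1, 27.4, 29.1, 25.5 and 31.9 CPM in the head and 18.2, 17.3, 15.6, 15.7, 17.3 and 18.1 CPM in the margin (log2 fold change 0.80 ± 0.09, adjusted p = 3.6e-09). zetaCO was higher as well, at 9.79 to 21.0 against 7.87 to 8.92 CPM (0.73 ± 0.13, adjusted p = 1.6e-05). betaCO was lower, at 31.0 to 43.4 against 47.8 to 51.4 CPM (-0.40 ± 0.07, adjusted p = 4.9e-06). For alphaCO, beta'CO and deltaCO the log2 fold changes were -0.16 ± 0.15, -0.15 ± 0.12 and 0.10 ± 0.09, and none passed the threshold. With scaling to total counts epsilonCO and zetaCO stayed called higher (0.56 and 0.49) and betaCO lower (-0.64), while alphaCO and beta'CO were then called lower (-0.40 and -0.39, adjusted p = 0.039 and 0.0068) and deltaCO turned to -0.14 without a call.

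Non-coding transcripts, those with the XR accession prefix, were more often lower in the head. Of 848 tested, 62 were called higher (7.31%) and 168 lower (19.8%), against 16.7% and 13.1% of 14391 coding transcripts, and the median log2 fold change was -0.59. At 2-fold or more it was 49 higher (5.78%) and 160 lower (18.9%), against 6.41% and 7.43% of the coding transcripts. The difference lay in the weaker transcripts. Under 1 CPM 20% of the non-coding and 11.6% of the coding transcripts were lower, and between 1 and 10 CPM 19.8% and 9.17%. Over 10 CPM, with 59 non-coding transcripts, the shares were 18.6% and 20% lower and 28.8% and 25% higher. The number of non-coding transcripts at 1 CPM or more was 275 to 339 per head library and 377 to 439 per margin library, which do not overlap, and 244 to 339 in the horn. Coding transcripts at that level numbered 9990 to 10576 per head library and 10351 to 10966 per margin library, which overlap. In the horn they numbered 8286 to 8904, so fewer transcripts of both kinds reached 1 CPM there. The share of non-coding transcripts in all counts was alike, 1.42 to 2.59% in the head and 1.51 to 3.45% in the margin. Under every scaling more were lower than higher, 181 against 58 with RLE factors (relative log expression) and 201 against 48 with total counts. With the head thinned to the depth of the margin it was 165 against 59.

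**Figure D4:**
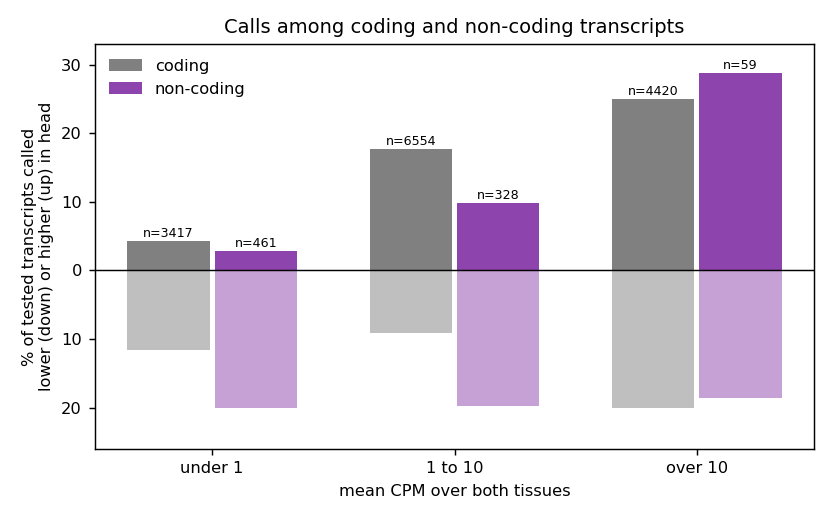
Share of tested coding and non-coding transcripts called higher (bars up) and lower (bars down) in the head, in percent, by mean level over both tissues. Under 1 CPM and between 1 and 10 CPM about 20% and 19.8% of non-coding transcripts were lower, against 11.6% and 9.17% of coding ones.

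The non-coding transcripts named here were picked after their values were seen, as the largest called differences with at least 5 CPM in the higher tissue and no overlap. XR_002707102.1 was at 136, 78.0, 103, 85.4, 88.7 and 91.0 CPM in the head and at 23.6, 12.4, 21.3, 22.0, 15.4 and 22.5 CPM in the margin (log2 fold change 2.31 ± 0.22, adjusted p = 5.2e-11). Its mean in the support structures, 91.7 CPM, was close to that of the head. LOC111424151 (XR_002707582.1, 2.73 ± 0.43, adjusted p = 2.4e-06) was at 5.77 to 23.9 CPM in the head and at most 2.87 CPM in the mean of any other tissue. LOC111426166 (XR_002707791.1, 3.14 ± 0.56, adjusted p = 2.3e-05) was at 18.9, 1.52, 9.26, 8.51, 1.59 and 13.4 CPM in the head. Its head libraries 2 and 5 lay just above the highest margin library, at 1.43 CPM, and those 2 libraries were the lowest of the head for LOC111427036 too (XR_002707893.1, 2.44 ± 0.46, adjusted p = 5.7e-05).

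Among the lower non-coding transcripts, XR_002707026.1 was steady in the head. It was at 0.547, 0.501, 0.518, 0.507, 0.693 and 0.717 CPM there and at 9.48, 7.72, 9.68, 8.43, 4.92 and 13.7 CPM in the margin (log2 fold change -3.94 ± 0.37, adjusted p = 4.1e-11). All other tissues had means of 3.59 to 14.3 CPM. XR_002707827.1 (-3.59 ± 0.41, adjusted p = 3.3e-09) was at 0.659 to 2.49 CPM in the head and 12.9 to 21.3 CPM in the margin. XR_002707649.1 (-2.95 ± 0.39, adjusted p = 1.1e-07) was at 1.46 to 4.58 and 18 to 33.1 CPM, and its means outside the head ranged from 7.89 CPM in the anterior margin to 164 CPM in the horn. LOC111416266 (XR_002706512.1, -2.59 ± 0.37, adjusted p = 4e-07) was at 2.07 to 6.58 CPM in the head and 16.1 to 37.8 CPM in the margin.

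A few genes had transcripts called in both directions. Of 1767 genes with at least 2 tested transcripts, 162 had at least 2 called, and in 12 of these (7.41%) the calls went in opposite directions. In 3 of the 12 both transcripts reached 5 CPM in the tissue where they were higher, and these are described here. For 6 of the 12 the summed gene was not called. In LOC111413909, XM_023045049.1 was at 13.1, 42.3, 26.1, 22.8, 32.1 and 17.8 CPM in the head and 0 to 1.43 CPM in the margin (log2 fold change 5.25 ± 1.73, adjusted p = 0.018). XM_023045048.1 of the same gene was at 24.5, 29.4, 23.5, 18.4, 19.4 and 19.3 CPM in the head and 58.4, 48.2, 42.5, 43.2, 51.2 and 49.5 CPM in the margin (-1.12 ± 0.24, adjusted p = 0.0003). For neither transcript did the tissues overlap. Their sum over the gene did not pass the threshold (log2 fold change -0.09, adjusted p = 0.74). The call of XM_023045049.1 was lost with margin columns 7 to 12 alone (adjusted p = 0.06) and without margin libraries 3 and 4 (adjusted p = 0.075).

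LOC111428275 had the same form. XM_023063732.1 was at 87.5, 35.2, 68.2, 70, 47.2 and 77.9 CPM in the head and 14.6 to 25 CPM in the margin (log2 fold change 1.75 ± 0.36, adjusted p = 0.00017). XM_023063730.1 was at 25.7, 41.1, 23.3, 24.7, 35.5 and 26.7 CPM against 38.6 to 56.6 CPM (-0.78 ± 0.16, adjusted p = 0.0002), and here the tissues overlapped through head library 2 and margin library 4. Head libraries 2 and 5 were the lowest of the head for the first transcript and the highest for the second. The gene's sum did not pass (log2 fold change 0.28, adjusted p = 0.13). In LOC111413729, with 8 tested transcripts, XM_023044813.1 was higher in the head (381 to 747 against 150 to 309 CPM, 1.16 ± 0.37, adjusted p = 0.015). That call was lost without margin replicate 4 (adjusted p = 0.055) and without margin libraries 3 and 4 (adjusted p = 0.12). XM_023044823.1 was at 0 in all head libraries and at 20, 0, 17.6, 12, 10.3 and 0 CPM in the margin. It was at least 1543-fold lower in the head, from counts summed over 6 libraries against a floor of 3 counts, but 2 margin libraries were also at 0.

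Neighbouring genes called in 1 direction were looked up in the order of the reference annotation, passing over genes that were not tested. The longest run of higher genes held 6, at log2 fold changes of 0.42 to 0.76, and 5 other runs of higher and 3 runs of lower genes held 5. Runs of 1 gene numbered 1030 higher and 1011 lower. Of all 7944 tested genes 24.1% were called higher and 22.7% lower. Whether runs of 5 or 6 are more than such shares alone give was not tested. Among runs of equal length those with the larger median fold change were taken, a choice that bears on their values. The run of 6 does not keep its length. LOC111415839 (adjusted p = 0.048) lost its call in 8 settings, among them RLE factors (adjusted p = 0.054) and a thinned head (adjusted p = 0.084), and with total counts LOC111415823, LOC111415821 and LOC111415839 all lost theirs (adjusted p = 0.071, 0.15 and 0.17). Another run of 5 held larger differences. It was made of LOC111415714 (5.02 ± 0.78), LOC111415712, LOC111415718, LOC111415687 (3.87 ± 0.47) and LOC111415710 (3.29 ± 0.46), with adjusted p between 7.9e-09 and 0.013. The levels of the summed genes were 10.3 ± 5.06 CPM against 1.05 ± 0.407 CPM for LOC111415710 and 6.88 ± 2.12 against 0.204 ± 0.194 CPM for LOC111415714. LOC111415712 had 292 counts in the head and 3 in the margin, a ratio of 46.4 after scaling with a 95% counting interval of 15.9 to 225. LOC111415718 had 14 counts in the head and 0 in the margin, at least 2.22-fold higher against the floor of 3 counts over 6 libraries. It lost its call under DESeq2 (adjusted p = 0.079) and with columns 7 to 12 (adjusted p = 0.055).

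The strongest run of lower genes was LOC111418807 (-1.07 ± 0.34), LOC111418874 (-4.86 ± 0.69), LOC111418857 (-2.75 ± 0.62), LOC111418893 (-4.02 ± 0.68) and LOC111418890 (-5.82 ± 0.69), with adjusted p between 2.9e-08 and 0.0091. LOC111418893 was at 3.17 ± 2.49 CPM in the head and 51.6 ± 36.5 CPM in the margin, and LOC111418874 at 0.674 ± 0.336 and 19.8 ± 12.5 CPM. LOC111418807 was at 44.2 ± 10.1 and 92.9 ± 15.2 CPM, and it lost the call without margin libraries 3 and 4 (adjusted p = 0.052). The other runs shown differed by less at the median, 0.90 for the higher genes from LOC111427799 to LOC111427915, -1.35 for the lower genes from LOC111423539 to LOC111423026 and -1.10 for those from LOC111427917 to LOC111427701. Whether reads shared between similar neighbours add to these runs was not tested.

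**Figure D5:**
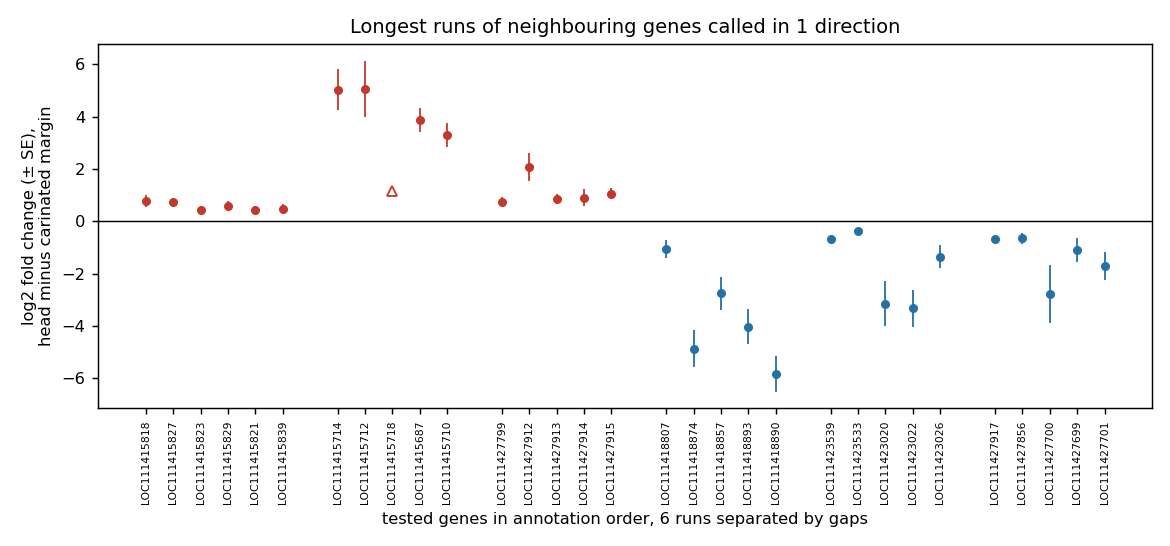
Log2 fold change of the summed genes, head minus carinated margin, in the longest runs of neighbouring genes called in 1 direction, in annotation order, with bars of ± SE. The open triangle is the lower bound of LOC111415718, which had no counts in the margin. The other 4 genes of its run lie between 3.29 and 5.06, and the 5 from LOC111418807 to LOC111418890 between -5.82 and -1.07.

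Which tissue's libraries varied more depended on the transcripts counted. Over all tested transcripts head libraries lay closer to each other than margin libraries, at distances of 1.12 to 1.46 against 1.36 to 1.59, and with all libraries thinned to 13.11 M at 0.987 to 1.28 against 1.16 to 1.37. Over 3906 transcripts with at least 10 CPM in both tissues, the median SD of log2 CPM was 0.258 in the head and 0.213 in the margin, and the SD was larger in the head for 61.7% of them. Head libraries are single samples, whereas each margin library is the sum of 2. The part of this in the spread was not tested. Few transcripts were present in every library of one tissue and absent from the other. With at least 10 counts in all 6 libraries of the head and 0 in the margin there were 11, and 4 in the other direction. With the head thinned to the margin's depth the numbers were 4 and 5.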

How the data were processed

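RNA sequencing counts of 60 samples in 8 tissues were analysed, 18 of them of the dorsal head and the carinated margin. The authors deposited a table of expected counts for 23725 RefSeq transcripts. The tools named, per the submitters' processing notes, were RSEM 1.3.0, Bowtie2 2.3.2, DESeq2 and Trimmomatic 0.32. Build, annotation and strand setting: not given in the sources used here. Of the values 29.71% lay more than 0.001 from a whole number, and they were rounded. Reads that fit near-identical genes are assigned by RSEM's model, and such copies were not looked for. No molecular identifiers are described, so the floor of 3 counts covers counting error alone.

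Margin columns carry numbers 1 to 12 with no side. Column k and column k+6 correlated in their deviations from the tissue mean (r = 0.336 to 0.517, other pairs at most 0.214), and all 12 correlated best with that partner, so these pairs were summed, as were those of the wing. Same-numbered head and margin libraries correlated at -0.266 to 0.064, and others at up to 0.401, so replicate number was not in the model. Outside the head the numbers do pair (carinated margin with dorsal prothorax, r = 0.45 to 0.667), so the spread of the fit is estimated from libraries of which many share animals. No libraries agreed within sampling noise.

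Transcripts kept by filterByExpr (minimum count 10, minimum total 15) were scaled by TMM and tested with edgeR 4.0.16 (limma 3.58.1, R 4.3.3) by the quasi-likelihood F-test fitted to the 48 libraries of all 8 tissues with a single factor, tissue, and p-values were adjusted over all 15239 transcripts. SE is the log2 fold change divided by the root of F. DESeq2 1.42.0 was an alternative. Levels are TMM-scaled CPM. Distances use log2 CPM with a prior count of 2. A table of RefSeq genes (assembly IU_Otau_3.0) gave names and gene order and matched 15104 transcripts to 10670 genes, 72.15% of counts.

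The transcripts named as higher or lower are those called with no overlap between the 6 head and 6 margin values and, where matched, a gene sum called in the same direction. From these came the 6 largest fold changes each way at 5 CPM or more, the 6 highest means each way at 2-fold or more, the 2 largest without a gene each way, and all with a symbol other than a locus number. The most abundant transcript and the uncalled symbols ending in CO are named beside them for context. Further named were genes with opposite calls, both transcripts at 5 CPM or more, and the 3 longest runs of neighbours each way. The comparison and these lists were chosen with earlier results of these data known. All 14 lists by protein pattern and 7 marker lists by name matched 0 genes and gave no result.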

Additional observations from a re-analysis of the deposited data

Results flagged for a closer look

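In 102 sets of 6 libraries of named transcripts the highest or lowest library was compared with the other 5, and in 11 of them it lay apart, with a gap to its nearest neighbour beyond Dixon's 95% critical value. Chance gives about 1 in 20 for independent values with a normal spread. Here the values are CPM without a log scale, some sets lie near 0, and all sets reuse the same 12 libraries. The 11 of 102 are therefore not read as an excess. Head library 2 accounts for 4 of the 11. It was at 41.9 CPM for LOC111415711, with the others at 11 to 14.3 CPM, and at 10.5 CPM for LOC111415853, with the others at 5.05 to 6.23 CPM. In transcripts low in the head it was at 0.702 CPM for LOC111419103 (others 0 to 0.244 CPM) and at 0.387 CPM for LOC111424382 (others 0 to 0.0898 CPM). Head library 5 was at 0.436 CPM for LOC111413927 (others 0.0938 to 0.215 CPM), and head library 1 was at 23.9 CPM for LOC111424151 (others 5.77 to 11 CPM).

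In the carinated margin, library 5 was at 2030 CPM for LOC111414411 (others 762 to 1150 CPM) and at 0.304 CPM for XM_023047518.1 (others 0 to 0.11 CPM). Library 4 was at 0.218 CPM for LOC111424387 (others 0 to 0.0304 CPM) and was the lowest for XM_023063730.1 of LOC111428275, at 38.6 CPM with the others at 50.7 to 56.6 CPM. Library 2 was at 61.6 CPM for Rab3-GA (others 33.9 to 40.9 CPM). In none of these 11 did the direction of the difference between head and margin depend on the library.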

How the results depend on the processing

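The count of called transcripts, 4517, was 4148 to 5451 under RLE factors, no filter, a stricter filter, DESeq2, the 2 tissues alone, no horn, a replicate block, columns 1 to 6 or 7 to 12, and a thinned head, and 4317 with total counts, where 1412 were higher. At 2-fold or more 2201 remained, 972 higher and 1229 lower, and at an adjusted p under 0.01 the lower calls were 1332. The fit with the replicate block called 5451 transcripts, 109 higher non-coding ones and 25 genes with opposite calls. As the numbers do not pair head and margin animals, that block is a description. The 2 tissues alone also gave 25 such genes, and leaving out margin libraries 3 and 4 gave 7. The margin's distance from the head was 1.354 with a prior count of 0.5 and 0.859 with 10, and 1.012 at equal depth, and it was the nearest tissue each time.

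Leaving out each library in turn gave 3892 to 4552 called transcripts (2077 to 2496 higher, 1756 to 2056 lower) and 3400 to 3866 called genes (2038 to 2322 higher, 1362 to 1544 lower). It gave 50 to 66 non-coding transcripts higher and 155 to 169 lower, and 10 to 13 genes with opposite calls. The share of higher genes rose from 51.4% to between 59.3 and 60.8% in these fits, with a median shift of 0.079 to 0.1. Scaling to total counts gave 38.1%. The leave-outs of libraries 2 and 5 and of 3 and 4, the equal depth and the non-coding counts by setting were added after the data were seen.

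Of 82 single values 66 kept call and direction in every setting, 16 lost the call in some and none reversed. In the run of lower genes from LOC111427917 to LOC111427701, calls were lost in many settings: LOC111427699 had an adjusted p of 0.053 to 0.36 in 12 of them. The cause was not tested. No list of named pathways was tested, since none could be matched, and the protein list alternatives were not run.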
